A study of Homo sapiens with 12 samples.

Results

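Regulators of apoptosis of the BCL2 family were examined by RNA sequencing of A549, a line of human lung adenocarcinoma cells. The family was taken as 10 genes chosen by their symbols, of 26334 genes in the count tables: the survival proteins BCL2, BCL2L1 and MCL1, the pore-forming BAX and BAK1, and the BH3-only proteins BBC3, PMAIP1, BCL2L11, BID and BIK. All 10 passed the filter on low counts and were tested. The splicing tables held 63 events in 9 of these genes, of 135611 events in all, and no event in BCL2. There were 12 libraries, 3 for each of 4 conditions. Every cell population had been infected with a lentivirus and selected with 1 µg/ml puromycin over 4 days, the control cells included. The virus delivered shControl or shRNF113A, an shRNA against RNF113A, which is an E3 ligase and a subunit of the spliceosome. Cells of each kind were left untreated or received 25 µg/ml Cisplatin, a drug that crosslinks DNA, for 20 h. Effects of this hairpin other than the depletion of RNF113A cannot be told apart from the depletion. The labels do not say whether replicates came from separate infections, so the p-values measure the spread between these samples.

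BCL2 family proteins decide whether the outer mitochondrial membrane stays intact. BAX and BAK1 form pores that release cytochrome c and so start the caspase cascade. BCL2, BCL2L1 (Bcl-xL) and MCL1 hold them in check, and BH3-only proteins such as BBC3 (PUMA), PMAIP1 (NOXA), BCL2L11 (BIM), BID and BIK relieve that block or activate the pore formers directly. Several members, BAX, BBC3 and PMAIP1 among them, are known to respond to DNA damage, and several are spliced into forms of opposite or altered activity.

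The splice sites that separate such forms are shown first, because the splicing results turn on them. They were read from the hg19 genome on the strand of the gene, 5′ to 3′. Capitals mark the GT that opens or the AG that ends the intron. Each site of 30 bases holds 20 bases upstream and 10 bases downstream of the boundary for a 5′ site, and 20 intronic and 10 exonic bases for a 3′ site. In BCL2L1 the downstream of the 5′ sites yields the long, protective Bcl-xL, and the upstream site, 189 bases earlier, yields the short, death-promoting Bcl-xS.
BCL2L1 long form, 5′ site (chr20:30309448-30309477, minus strand): tccaggagaacggcggctggGTaagaacca
BCL2L1 short form, 5′ site (chr20:30309637-30309666, minus strand): catatcagagctttgaacagGTagtgaatg
An internal exon of MCL1 of 248 bases is kept in the protective long form and skipped in the short form MCL-1S.
MCL1 exon, 3′ site (chr1:150550958-150550987, minus strand): tgcatgcttttctttctcAGgcatgcttcg
MCL1 exon, 5′ site (chr1:150550710-150550739, minus strand): tagttaaacaaagaggctggGTaagtttgc
BAX had a short intron of 87 bases, printed whole, a last intron of 617 bases whose retention gives the beta form, and a rarely used exon of 98 bases, for which no sequence is shown.
BAX short intron (chr19:49458857-49458943, plus strand): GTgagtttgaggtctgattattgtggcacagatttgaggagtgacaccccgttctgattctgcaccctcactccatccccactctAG
BAX last intron, 5′ site (chr19:49464152-49464181, plus strand): tccaagaccagggtggttggGTgagactcc
BAX last intron, 3′ site (chr19:49464769-49464798, plus strand): actgatgtccctgtctccAGgacggcctcc
In BCL2L11 a segment of 180 bases is kept in the extra-long form BimEL and spliced out in the long form BimL.
BCL2L11 segment, 5′ site (chr2:111881427-111881456, plus strand): cctacagacagagccacaagGTaatcctga
BCL2L11 segment, 3′ site (chr2:111881607-111881636, plus strand): gtatttctcttttgacacAGacaggagccc

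Each library had 26220526 to 45721152 pairs of reads counted on the strand of a gene, and the 3 libraries of depleted cells with Cisplatin were the smallest, with at most 30806147. Levels are given as CPM, counts relative to the library's total as scaled by edgeR's TMM method, and changes as log2 fold changes with their standard error (SE) and the Benjamini-Hochberg adjusted p of edgeR's quasi-likelihood test over 15352 genes. RNF113A was at 20.3, 19.5 and 19.8 CPM in untreated control cells and at 15.3, 15.8 and 16.8 CPM in untreated depleted cells, a log2 fold change of −0.31 (adjusted p = 0.0247). With Cisplatin it was at 31.5, 28.9 and 27.7 CPM in control cells and at 25.8, 24.3 and 29.9 CPM in depleted cells, which overlapped (log2 −0.14, adjusted p = 0.233). Cells are called depleted by the label of their shRNA. RNF113A overlaps NDUFA1 on the other strand. All 5 epithelial markers looked up (KRT7, KRT8, KRT18, EPCAM and CDH1) were detected in every condition, and of 6 markers of blood, endothelial and connective tissue cells 2 passed the filter, COL1A1 and CDH5, the summed level of the 6 being 5.89 to 35.4 CPM in untreated control, 6.58 to 14.2 in treated control, 3.91 to 6.41 in untreated depleted and 6.31 to 6.77 in treated depleted cells. Upon depletion COL1A1 fell in untreated cells and CDH5 rose in treated cells (adjusted p = 0.0438 and 0.044), and the part of either in the results was not tested. Replicate 2 of untreated control cells stood apart from its group, with COL1A1 at 34.9 CPM against 5.86 and 7.08 and KRT8 at 3565 CPM against 6602 and 6349, and replicate 2 of control cells with Cisplatin deviated alongside it. Expression and intronic calls of members that change without both of these libraries are given both ways. Some values that moved without a change of call are given so too. Leaving out both was a comparison added after the data were seen.

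Per length of exonic sequence, BAX and BCL2L1 were the most abundant members in untreated control cells, at 101 ± 13.6 and 97.9 ± 17.4 CPM per kb (SD, n = 3), and their ranges overlapped. MCL1 followed at 44.0 ± 3.70 CPM per kb. BID at 15.9 ± 0.306, BAK1 at 12.4 ± 0.521 and PMAIP1 at 7.26 ± 0.712 CPM per kb came next, each apart from its neighbour in the order. BCL2L11 (4.63 ± 0.442 CPM per kb) and BBC3 (3.62 ± 0.874) overlapped, as did BCL2 (0.658 ± 0.0535) and BIK (0.520 ± 0.129), the lowest of the family. In control cells with Cisplatin the order began with BAX at 271 ± 26.1, BCL2L1 at 96.8 ± 3.55 and MCL1 at 82.0 ± 5.15 CPM per kb, and PMAIP1, BAK1 and BBC3 stood next at 35.3 to 47.7 CPM per kb, above BID at 16.7 ± 0.709. PMAIP1 and BAK1 overlapped there, and so did BAK1 and BBC3. Depleted cells with Cisplatin were the condition in which MCL1, at 103 ± 2.95 CPM per kb, stood above BCL2L1, at 67.0 ± 4.43 CPM per kb, with no overlap. BCL2 was the lowest member in 3 of the 4 conditions, and its range overlapped that of BIK, the lowest, in the fourth.

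**Figure D1:**
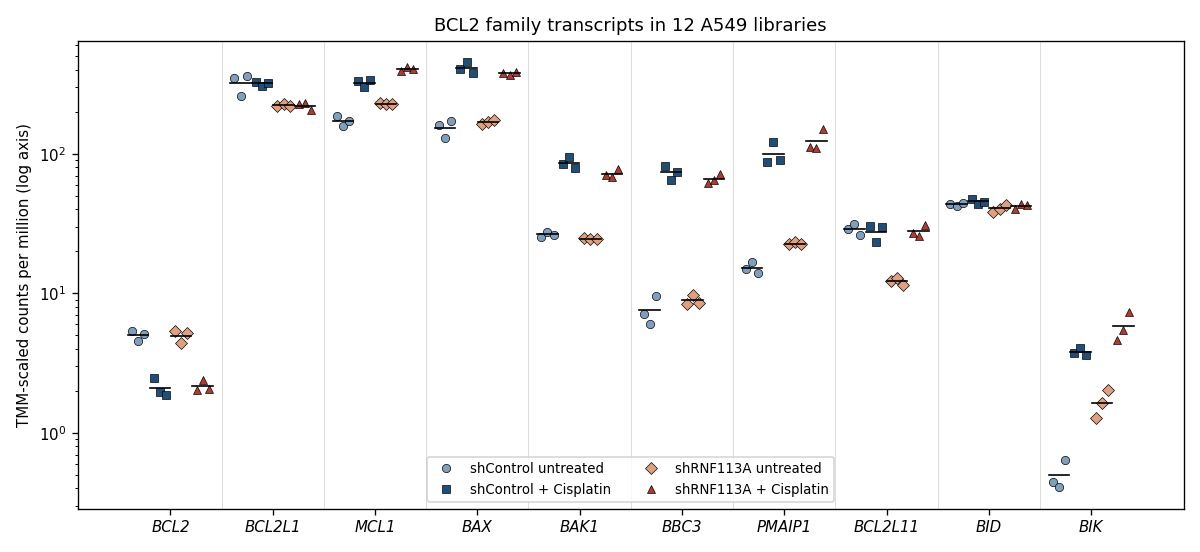
Level of the 10 genes in each library, in TMM-scaled CPM on a log axis, with the 3 libraries of a condition as points and their mean as a bar. BBC3, PMAIP1, BAX, BAK1 and BIK lie higher with Cisplatin in both kinds of cells, BCL2 lies lower, and BCL2L11 is low in the 3 untreated depleted libraries, at 11.4 to 12.8 CPM.

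Cisplatin moved most of the family, and in the same direction in control and depleted cells for 7 genes. In control cells MCL1, BAX, BAK1, BBC3, PMAIP1 and BIK rose and BCL2 fell. BCL2L1, BCL2L11 and BID did not pass the test. The 6 rises stood against a background of 28.0% of all tested genes that rose and the single fall against 27.0% that fell. A change of at least 2-fold was reached by 6 members, against 19.8% of all genes, MCL1 being the riser that missed it. The median log2 fold change was 1.16 over the 10 members and −0.0053 over all genes tested. In depleted cells the same 6 genes and BCL2L11 rose, against a background of 32.4%, and BCL2 fell, against 27.8%. Here 7 members changed at least 2-fold, against 23.1% of all genes, and the median was 1.18 over the members and 0.056 over all genes. Cisplatin also lowered 4 of 5 epithelial markers in control cells and 5 of 5 in depleted cells, their summed level going from between 8521 and 15914 CPM in untreated libraries to between 4614 and 6842 CPM, and the part of this in the results was not tested. In bulk libraries, fewer cells that hold a transcript and less of it per cell cannot be told apart.

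Depletion of RNF113A moved fewer members, 5 in untreated and 4 in treated cells. In untreated cells MCL1, PMAIP1 and BIK rose, against 12.8% of all genes, and BCL2L1 and BCL2L11 fell, against 14.6%. BIK and BCL2L11 changed at least 2-fold, against 8.66% of all genes. In Cisplatin-treated cells MCL1 and BIK rose, against 21.1%, and BCL2L1 and BAK1 fell, against 21.8%, BAK1 not with a replicate block (adjusted p = 0.0965). No member reached a 2-fold change there at any p, with edgeR or with DESeq2, against 12.3% of all genes. The response to Cisplatin differed between depleted and control cells for BCL2L11 alone, which had a higher response in depleted cells by the interaction test, where 1.98% of all genes were higher, 2.27% lower and 1.28% past both limits. The epithelial marker EPCAM, another gene that moved with depletion, rose by a log2 fold change of 3.16 (SE 0.40, adjusted p = 1.66e-04) in untreated cells, from 5.57 to 18.4 CPM to 85.5 to 97.6 CPM, and its part in the results was not tested. CDH1 fell in untreated cells (log2 −0.53, adjusted p = 0.0414). The comparisons share conditions, so their values for a gene are set side by side and not counted as independent.

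**Figure D2:**
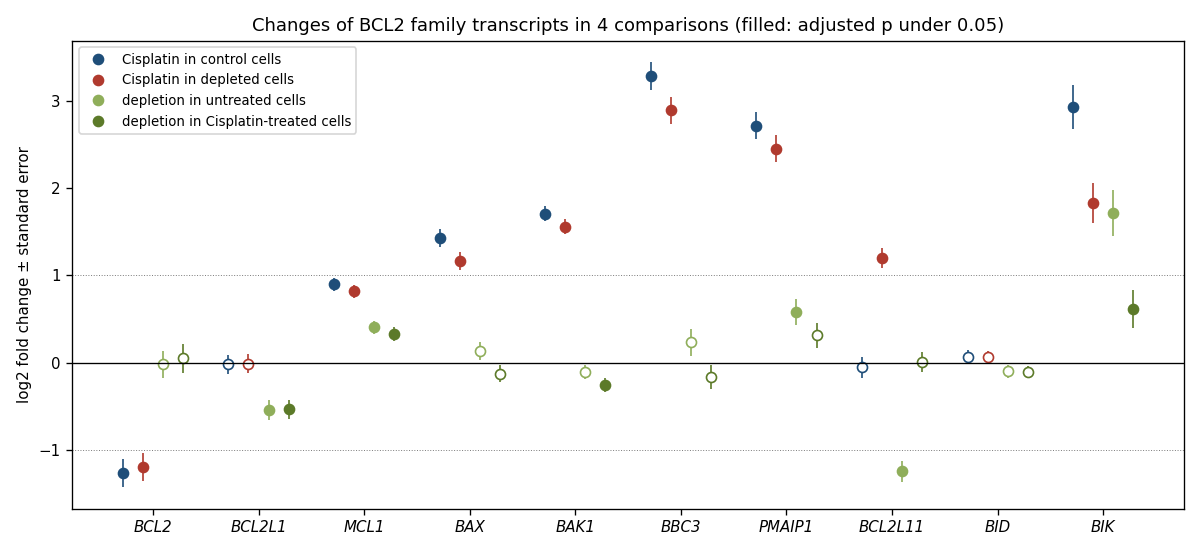
Log2 fold change with its standard error for the 10 genes in 4 comparisons, filled where the adjusted p was under 0.05, with dotted lines at a 2-fold change. BCL2L11 has a filled point for Cisplatin in depleted cells, at 1.20, and an open one in control cells, at −0.05, while BBC3 lies highest of all, at 3.28 and 2.89.

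Among the survival genes, BCL2 was at 5.39, 4.59 and 5.12 CPM in untreated control cells and at 2.47, 1.95 and 1.87 CPM with Cisplatin. In depleted cells it was at 5.35, 4.38 and 5.17 CPM untreated and at 2.04, 2.41 and 2.06 CPM with Cisplatin. Libraries with Cisplatin were all below those without, and shControl and shRNF113A libraries overlapped. BCL2 thus fell with Cisplatin by 1.26 on the log2 scale in control cells (SE 0.16, adjusted p = 3.32e-05) and by 1.19 in depleted cells (SE 0.16, adjusted p = 4.99e-05), from 167 to 202 counts per untreated library to between 55 and 94.

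BCL2L1, which encodes Bcl-xL, was at 352, 258 and 364 CPM in untreated control cells and at 330.1, 308 and 324 CPM in control cells with Cisplatin. It was at 221, 228 and 221 CPM in untreated depleted cells and at 228, 233 and 205 CPM in depleted cells with Cisplatin. All 6 depleted libraries lay below all 6 control libraries, and treatment did not separate them. The gene fell by 0.54 on the log2 scale upon depletion in untreated cells (SE 0.11, adjusted p = 0.00375) and by 0.53 in treated cells (SE 0.11, adjusted p = 0.00246). Without replicate 2 of both control groups the fall in untreated cells was 0.68 on the log2 scale (log2 −0.68, adjusted p = 7.07e-07). With Cisplatin its log2 fold change was −0.02 in control cells (adjusted p = 0.906, and −0.13 with adjusted p = 0.142 without those 2 libraries) and −0.0085 in depleted cells (adjusted p = 0.954).

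MCL1, whose protein is short-lived and binds BAK1 and several BH3-only proteins, was at 187, 158 and 173 CPM in untreated control cells. It was at 332, 299 and 336 CPM in control cells with Cisplatin, at 233, 228 and 227 CPM in untreated depleted cells and at 394, 417 and 406 CPM in depleted cells with Cisplatin. The 4 conditions did not overlap, the untreated control cells being lowest and the treated depleted cells highest. MCL1 rose with Cisplatin by a log2 fold change of 0.90 in control cells (SE 0.08, adjusted p = 1.01e-06) and 0.82 in depleted cells (SE 0.08, adjusted p = 1.92e-06). Depletion raised it by 0.41 (SE 0.08, adjusted p = 0.00197) in untreated and 0.33 (SE 0.08, adjusted p = 0.00422) in treated cells. MCL1 was therefore higher and BCL2L1 lower in depleted cells at each level of the drug.

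Of the pore formers, BAX was at 160.2, 131 and 171 CPM in untreated control cells and at 407, 457 and 378 CPM with Cisplatin. Depleted cells held it at 163, 169 and 176 CPM untreated and at 381, 371 and 387 CPM with Cisplatin. It rose with the drug by a log2 fold change of 1.43 (SE 0.10, adjusted p = 2.29e-07) in control and 1.17 (SE 0.10, adjusted p = 1.04e-06) in depleted cells. The shControl and shRNF113A libraries overlapped at each level of the drug. BAK1 was at 25.3, 27.6 and 26.4 CPM in untreated control cells, at 84.3, 95.0 and 79.2 CPM in control cells with Cisplatin, at 24.9, 24.4 and 24.4 CPM in untreated depleted cells and at 71.1, 67.9 and 78.0 CPM in depleted cells with Cisplatin. The drug raised BAK1 by log2 fold changes of 1.70 (SE 0.08, adjusted p = 1.23e-08) and 1.56 (SE 0.08, adjusted p = 2.66e-08). Upon depletion it fell in treated cells by 0.25 on the log2 scale (SE 0.08, adjusted p = 0.0254) and had a log2 fold change of −0.11 (adjusted p = 0.369) in untreated cells. The fall of BAK1 was lost with a replicate block within the comparison (log2 −0.25, adjusted p = 0.0965), and was 0.18 on the log2 scale (log2 −0.18, adjusted p = 0.0447) without replicate 2 of both control groups. BAK1 has a processed pseudogene copy, and read pairs that fit both loci are left out of counts of uniquely mapped reads.

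BBC3 and PMAIP1, BH3-only genes of the DNA damage response, rose most in control cells apart from BIK. BBC3 was at 7.16, 5.99 and 9.57 CPM in untreated control cells and at 82.3, 65.3 and 73.8 CPM with Cisplatin, and at 8.36, 9.82 and 8.55 CPM and 61.7, 64.7 and 71.7 CPM in depleted cells. Its log2 fold changes with the drug were 3.28 (SE 0.16, adjusted p = 9.87e-09) and 2.89 (SE 0.16, adjusted p = 2.63e-08), the largest of the family in each kind of cell. PMAIP1 was at 15.0, 16.9 and 13.9 CPM in untreated control cells and at 87.3, 122 and 90.5 CPM with Cisplatin, and at 22.5, 23.3 and 22.6 CPM and 113, 110.0 and 151 CPM in depleted cells. The drug raised it by 2.71 (SE 0.15, adjusted p = 3.70e-08) and 2.45 (SE 0.15, adjusted p = 7.36e-08). Depletion alone raised PMAIP1 by a log2 fold change of 0.58 (SE 0.15, adjusted p = 0.0132) in untreated cells. In treated cells the change of PMAIP1 was 0.32 (adjusted p = 0.091), with 1 control library, replicate 2 at 122 CPM, inside the range of the depleted ones. Without replicate 2 of treated control cells that value was 0.44 (adjusted p = 0.0157), and without replicate 2 of both control groups 0.48 (adjusted p = 0.00118). BBC3 had a depletion log2 fold change of 0.24 in untreated cells (adjusted p = 0.282) and −0.16 in treated cells (adjusted p = 0.378). The untreated value of BBC3 was 0.44 without replicate 3 of untreated control cells (adjusted p = 0.0364) and 0.09 without replicate 2 of both control groups (adjusted p = 0.591). Its treated value without replicate 2 of both control groups was −0.24 (adjusted p = 0.0482).

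BIK, a BH3-only protein of the endoplasmic reticulum, rested on few reads, 16 to 24 counts per untreated control library and 144 to 197 per treated depleted library. It was at 0.442, 0.408 and 0.636 CPM in untreated control cells and at 3.71, 4.04 and 3.62 CPM with Cisplatin, and at 1.27, 1.63 and 2.03 CPM and 4.65, 5.47 and 7.37 CPM in depleted cells. The 4 conditions did not overlap. BIK rose by a log2 fold change of 2.93 (SE 0.26, adjusted p = 1.37e-06) with Cisplatin in control cells, 1.83 (SE 0.23, adjusted p = 2.34e-05) in depleted cells, and 1.72 (SE 0.26, adjusted p = 5.76e-04) with depletion in untreated cells. Its rise upon depletion in treated cells, 0.62 (SE 0.22, adjusted p = 0.0352), was lost without any of replicates 1, 2 and 3 of treated control cells or replicates 2 and 3 of treated depleted cells, with adjusted p between 0.0594 and 0.172. The interaction of BIK, its Cisplatin response in depleted minus control cells, was −1.10 on the log2 scale and missed the threshold with edgeR (SE 0.34, adjusted p = 0.0869) and passed it with DESeq2 (−1.13, adjusted p = 0.0427).

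BCL2L11 encodes BIM, a potent activator of BAX and BAK1. Its level was 28.8, 31.6 and 26.1 CPM in untreated control cells and 30.3, 23.3 and 29.7 CPM in control cells with Cisplatin. In untreated depleted cells it was 12.3, 12.8 and 11.4 CPM, and in depleted cells with Cisplatin 27.1, 26.0 and 30.8 CPM. The 3 untreated depleted libraries thus lay below the other 9, which overlapped. BCL2L11 fell upon depletion in untreated cells by 1.24 on the log2 scale (SE 0.12, adjusted p = 1.97e-05) and had a depletion log2 fold change of 0.011 in treated cells (adjusted p = 0.947). It rose with Cisplatin in depleted cells by 1.20 (SE 0.12, adjusted p = 3.51e-06), against −0.05 in control cells (adjusted p = 0.716). The interaction, the response of depleted minus that of control cells, was 1.25 (SE 0.17, adjusted p = 0.00639). Without replicate 2 of both control groups the interaction was 1.07 (adjusted p = 1.66e-04), the response of control cells 0.13 (adjusted p = 0.264) and the change upon depletion in treated cells −0.10 (adjusted p = 0.337). BID, which caspase 8 cleaves to link death receptors to mitochondria, stayed between 38.1 and 47.7 CPM in all 12 libraries. Its log2 fold changes lay between −0.10 and 0.07, and none of its 4 comparisons passed the test (adjusted p between 0.265 and 0.466).

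Splicing was read as an inclusion level, the length-corrected share of reads of the longer form, from 0 to 1, in 3 libraries per condition that the tables do not name by replicate. Events with at least 10 reads in every library of a comparison were tested by edgeR, inclusion against skipping reads with a term for each library. Most of the 63 member events, 42, were skipped exons, and BCL2L11 (29 events) and BAX (12 events) held the most. With Cisplatin in depleted cells 5 of 40 tested member events passed an adjusted p of 0.05, against 2.61% of all events. In control cells 0 of 47 passed, 2 had an unadjusted p under 0.05, and 0.529% of all events passed. Depletion moved 1 of 44 events in untreated cells, against 0.906%, and 1 of 49 in treated cells, against 2.32%. Both were retained introns of BAX, whereas the shares are over events of all categories, mostly of other kinds. The share among retained introns alone is not given. No tested member event reached a difference of 0.2 in inclusion level at any p, the largest being 0.198. Of all events, 0.0681%, 0.283%, 0.058% and 0.172% passed both limits for Cisplatin in control cells, Cisplatin in depleted cells, depletion in untreated cells and depletion in treated cells.

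Bcl-xL, from the long-form site of BCL2L1 printed above, made up most of the transcript throughout. Its inclusion level was 0.951, 0.971 and 0.957 in untreated control cells and 0.907, 0.936 and 0.928 with Cisplatin, which did not overlap but missed the threshold (log2 odds −0.94, SE 0.30, adjusted p = 0.0944). In depleted cells it was 0.950, 0.942 and 0.954 untreated and 0.886, 0.904 and 0.890 with Cisplatin, a fall of 1.12 in log2 odds (SE 0.29, adjusted p = 0.0047). That call was lost without 1 library, the first listed of either condition, with adjusted p of 0.0510 and 0.0645. The share of the short Bcl-xS form was thus higher with Cisplatin in depleted cells, the mean inclusion level of the long form being 0.949 untreated and 0.893 treated.

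The internal exon of MCL1 was kept in nearly all transcripts, at 0.976, 0.992 and 0.971 in untreated and 0.977, 0.992 and 0.987 in treated control cells. Untreated depleted cells had the lowest values, 0.936, 0.931 and 0.964, and treated depleted cells 0.975, 0.973 and 0.982. The difference with Cisplatin in depleted cells passed the threshold (log2 odds 1.31, SE 0.39, adjusted p = 0.0445) and was lost whenever 1 library was left out. Between untreated depleted and control cells the log2 odds were −1.52 (SE 0.45, adjusted p = 0.326), and −1.52 with an adjusted p of 0.0456 when events with under 10 reads of the rarer form were not tested, a setting chosen after the data were seen.

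BAX held the other events that passed. Its last intron had levels of 0.453, 0.299 and 0.446 in untreated control cells and 0.535, 0.546 and 0.527 in untreated depleted cells, all 3 above the controls (log2 odds 0.81, SE 0.19, adjusted p = 7.63e-04). With Cisplatin the levels were 0.370, 0.270 and 0.378 in control and 0.437, 0.431 and 0.443 in depleted cells, again without overlap (log2 odds 0.61, SE 0.25, adjusted p = 0.0645). The second listed control library was low at both levels of the drug. In depleted cells the drug lowered retention of this intron (log2 odds −0.57, SE 0.14, adjusted p = 6.52e-04). Without the third listed library of treated control cells, the difference upon depletion with Cisplatin passed (log2 odds 0.74, adjusted p = 0.00198).

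The short BAX intron behaved otherwise. Its levels were 0.107, 0.0898 and 0.0878 in untreated control, 0.0775, 0.0615 and 0.0997 in treated control, 0.107, 0.122 and 0.0896 in untreated depleted and 0.171, 0.162 and 0.195 in treated depleted cells. The treated depleted libraries lay above the other 9. Retention rose with Cisplatin in depleted cells (log2 odds 0.84, SE 0.19, adjusted p = 1.67e-04) and with depletion in treated cells (log2 odds 1.33, SE 0.29, adjusted p = 4.60e-04). The rare BAX exon of 98 bases was likewise highest in treated depleted cells, with levels of 0.0175, 0.0143 and 0.0131, then 0.0217, 0.0323 and 0.0291 in control cells without and with the drug, and 0.0100, 0.0116 and 0.0133, then 0.0474, 0.0415 and 0.0718 in depleted cells. Its rise with Cisplatin in depleted cells had the smallest adjusted p of all member events (log2 odds 2.23, SE 0.28, adjusted p = 4.53e-12). Upon depletion in treated cells its log2 odds were 0.96 (SE 0.30, adjusted p = 0.119), and the adjusted p was 0.0204 when events with few reads of the rarer form were left out.

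For BCL2L11, the segment that separates BimEL from BimL rested on few reads, 297 to 482 per comparison. Its inclusion levels were 0.627, 0.817 and 0.529 in untreated control, 0.493, 0.443 and 0.637 in treated control, 0.472, 0.731 and 0.632 in untreated depleted and 0.409, 0.431 and 0.400 in treated depleted cells. None of the 4 comparisons of this segment passed, with adjusted p between 0.209 and 0.811, and differences of up to 0.198 were not separable from the spread at this depth. The 3 treated depleted libraries were the lowest of the 12. An exon of PMAIP1 at chr18:57567660-57567946 was included at 0.0254, 0.0272 and 0.0388 in treated control and 0.0546, 0.0602 and 0.0665 in treated depleted cells (log2 odds 1.04, SE 0.32, adjusted p = 0.114, and 0.0140 when events with few reads of the rarer form were left out). An alternative 3′ site of BID, used at levels of at most 0.0114, passed in none of the 4 comparisons, its smallest adjusted p being 0.152.

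**Figure D3:**
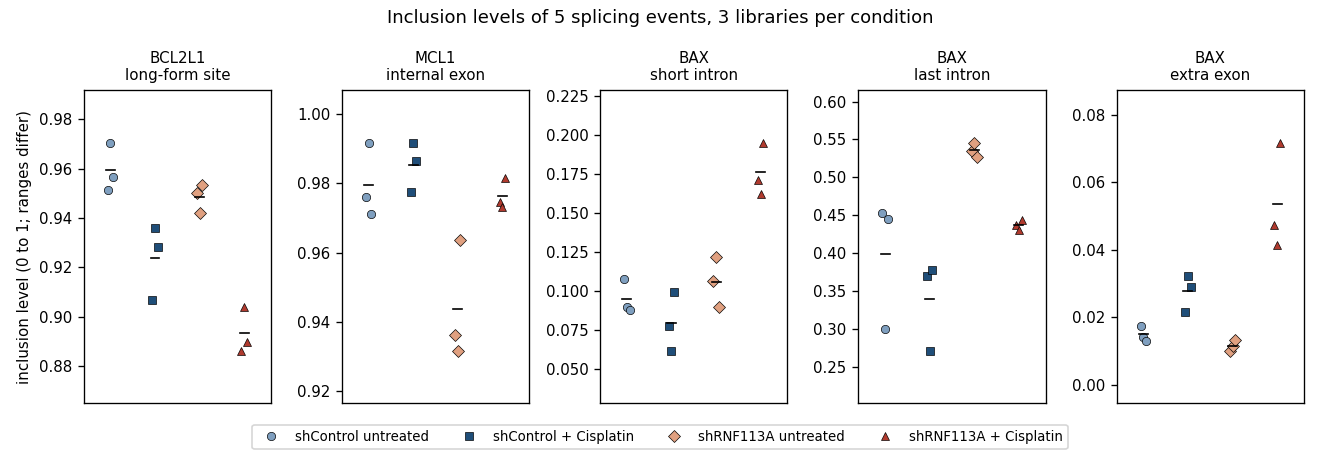
Inclusion level, from 0 to 1, of 5 splicing events of BCL2L1, MCL1 and BAX in the 3 libraries of each condition, with the mean as a bar and an axis range of its own for each event. The short intron and the rare exon of BAX are highest in depleted cells with Cisplatin, at means of 0.176 and 0.0535, and the last intron of BAX is highest in untreated depleted cells, at 0.536.

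Reads that lie at least partly in an intron were set against exonic reads of the same gene, as a measure of unspliced transcript. Over 11488 genes the intronic share of all reads was 4.36 to 4.83% in untreated control cells, 4.67 to 7.19% in control cells with Cisplatin, 5.77 to 6.65% in untreated depleted cells and 9.99 to 10.4% in depleted cells with Cisplatin. The highest of the treated control libraries was replicate 3. Of 9 members tested, all but BIK, the intronic to exonic ratio rose for 2 with Cisplatin in control cells, 6 in depleted cells, 5 upon depletion in untreated cells and 8 in treated cells. The shares of all genes that changed were 18.7%, 65.4%, 28.4% and 81.7%, close to those of the members except upon depletion in untreated cells. That count was 1 without replicate 2 of untreated depleted cells, 2 without replicate 2 of untreated control cells, 3 without replicate 1 of untreated depleted cells and 8 without replicate 2 or 3 of treated control cells. The count for Cisplatin in control cells was 6 without replicate 2 of treated control cells and 4 without replicate 2 of both control groups. Without both, BAX (log2 0.71, adjusted p = 0.00186) and BID (0.71, adjusted p = 0.0367) passed there. BBC3 then passed upon depletion in untreated cells (0.68, adjusted p = 0.0499), and BCL2L11 with Cisplatin in depleted cells (0.45, adjusted p = 0.0270). The median log2 changes of the 9 members were 0.35, 0.88, 0.71 and 1.33, against 0.29, 0.75, 0.47 and 0.96 over all genes. When intronic and exonic reads were scaled separately, which takes out the shift common to all genes, 2 members rose and 1 fell with Cisplatin in control cells, 2 rose and 2 fell in depleted cells, 1 rose upon depletion in untreated cells, and 5 rose and 1 fell in treated cells. The shares of all genes that passed with this scaling are not given, so these counts have no background to be read against.

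Intronic shares of MCL1, BAK1 and PMAIP1 each separated the cells by shRNA. For BAK1 they were 2.25 to 5.97% in control and 6.81 to 12.2% in depleted libraries, and for PMAIP1 3.16 to 7.09% and 7.84 to 10.5%. Intronic reads of MCL1 made up 1.54, 0.803 and 1.24% of its reads in untreated control and 1.14, 0.827 and 1.92% in treated control cells, against 4.12, 3.42 and 3.50% in untreated depleted and 4.11, 3.12 and 4.24% in treated depleted cells. The log2 change of the ratio was 1.67 (SE 0.26, adjusted p = 0.00113) in untreated and 1.64 (SE 0.25, adjusted p = 1.34e-05) in treated cells, and with separate scaling 1.19 (adjusted p = 2.32e-04) and 0.64 (adjusted p = 0.00298). In treated cells the changes of BID (1.54), BBC3 (1.54) and BAK1 (1.49) were within 1 SE of that of MCL1. Cisplatin did not separate the libraries of MCL1 (log2 0.08, adjusted p = 0.871, and 0.05, adjusted p = 0.869). With separate scaling the ratio of MCL1 fell with Cisplatin in depleted cells by 0.70 on the log2 scale (adjusted p = 3.97e-04).

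BBC3 had one of the highest intronic shares of the family. It was 16.9, 12.2 and 10.2% in untreated control cells, 11.4, 12.5 and 21.4% with Cisplatin, 19.2, 19.7 and 20.1% in untreated depleted cells and 33.7, 32.3 and 33.8% in depleted cells with Cisplatin. Depletion in treated cells raised its ratio by a log2 change of 1.54 (SE 0.23, adjusted p = 1.22e-05), and by 0.53 with separate scaling (adjusted p = 0.00548). BCL2, whose long gene of 196783 bases is mostly intron, had the highest shares, 30.7 to 41.3% in untreated control cells and 54.5 to 59.1% with Cisplatin, a log2 change of 1.21 (SE 0.23, adjusted p = 6.04e-04). Upon depletion in treated cells the change of BCL2 missed the threshold (log2 −0.13, adjusted p = 0.609), and with separate scaling its ratio fell (log2 −1.13, adjusted p = 0.00116). BCL2L1 rose with Cisplatin in control cells by 1.26 (SE 0.17, adjusted p = 7.35e-06) and in depleted cells by 1.66 (SE 0.17, adjusted p = 4.19e-08), and passed the test in both with separate scaling. BCL2L11 had 6.17 to 8.72% intronic reads in untreated control and 8.96 to 12.9% in untreated depleted cells (log2 0.72, SE 0.26, adjusted p = 0.0405), a rise that was not past the threshold with separate scaling (0.24, adjusted p = 0.437). That rise also lost its call on omission of most single libraries, with adjusted p between 0.0532 and 0.157 where it was lost. BIK was not tested, having 0 intronic reads in a library, and its share was 27.7 to 34.3% in depleted cells with Cisplatin against 13.0 to 17.5% in treated control cells. Without replicate 2 of both control groups BIK could be tested. Its ratio then rose upon depletion in treated cells (log2 1.13, adjusted p = 1.67e-04) and with Cisplatin in depleted cells (1.65, adjusted p = 1.03e-05).

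**Figure D4:**
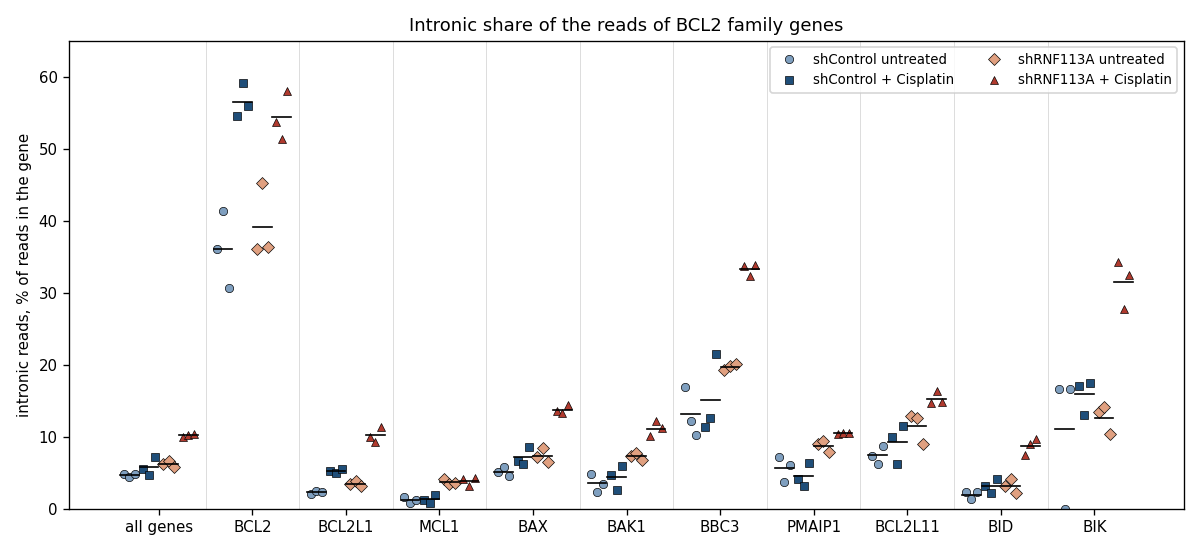
Intronic reads as a percentage of the reads of each gene, for all 11488 genes together and for the 10 members, with 3 libraries per condition as points and their mean as a bar. Depleted cells with Cisplatin lie highest for all genes together, at 9.99 to 10.4%, and for most members. MCL1, BAK1 and PMAIP1 are split by the shRNA, and BCL2 and BCL2L1 by the drug.

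Other genes of the pathway were taken from lists, whose counts stand against 55.0% and 60.2% of all genes that changed with Cisplatin in control and depleted cells, and 27.4% and 42.9% that changed upon depletion in untreated and treated cells. Of 13 further BCL2 family genes, 11 passed the filter on low counts. Cisplatin raised 2 and lowered 2 of them in control cells and raised 3 and lowered 2 in depleted cells, and depletion lowered 1 in untreated cells and raised 3 and lowered 1 in treated cells. These 4, 5, 1 and 4 of 11 genes lay below those shares of all genes. BCL2A1, a survival gene known as a target of NF-κB, moved most, by log2 fold changes of 2.95 and 4.24 with Cisplatin and −2.23 and −0.94 with depletion (adjusted p at most 0.00491), from a mean of 0.574 CPM in untreated control cells. Its values of 4.24 and −2.23 rested on 3 to 5 counts per untreated depleted library. Over this list the median log2 fold changes were −0.22 and −0.049 with Cisplatin in control and depleted cells, and −0.19 and −0.099 with depletion in untreated and treated cells, against −0.0053, 0.056, 0.0028 and −0.0069 over all genes. BMF, a BH3-only gene, fell with Cisplatin by 1.03 in control and 0.95 in depleted cells on the log2 scale (adjusted p = 0.00586 and 0.00905). HRK, also BH3-only, fell in depleted cells by 1.30 on the log2 scale (adjusted p = 0.00581) and had −0.62 in control cells (adjusted p = 0.106). It held only 5 to 17 counts per treated depleted library. BCL2L13, a mitochondrial family member, rose by 0.38 and 0.43 (adjusted p = 7.94e-04 and 2.62e-04).

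Of 8 genes that control the turnover of MCL1 protein, 7 were tested and TRIM17 had 0 counts in all libraries. Cisplatin raised 2 and lowered 3 in control cells and raised 1 and lowered 5 in depleted cells, and depletion lowered 1 in untreated and 4 in treated cells. Thus 5, 6, 1 and 4 of 7 genes changed, against 55.0%, 60.2%, 27.4% and 42.9% of all genes. FBXW7, an F-box protein that marks MCL1 for degradation, rose with the drug by log2 fold changes of 1.94 and 2.00 (SE 0.12 each, adjusted p = 9.80e-08 and 7.08e-08). USP9X, a deubiquitinase that stabilises MCL1, fell in all 4 comparisons, by 0.44 and 0.62 on the log2 scale with Cisplatin and by 0.37 and 0.55 with depletion (adjusted p = 0.00543, 4.84e-04, 0.0295 and 0.00236). BTRC, a ubiquitin ligase subunit, fell by 0.92 and USP13, a deubiquitinase, by 0.64 on the log2 scale with the drug in control cells (adjusted p = 1.99e-05 and 7.34e-04). In the same order of comparisons the medians of the list were −0.019, −0.48, 0.099 and −0.29.

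Downstream of the pore, 9 genes were tested. Cisplatin raised 4 in control cells and raised 4 and lowered 2 in depleted cells, and depletion raised 1 and lowered 3 in untreated cells and lowered 3 in treated cells. Thus 4, 6, 4 and 3 of 9 genes changed, against the same 55.0%, 60.2%, 27.4% and 42.9%. APAF1, the scaffold of the apoptosome, rose by 1.61 (SE 0.10, adjusted p = 5.29e-08) and 1.13 (SE 0.10, adjusted p = 8.60e-07) with the drug, and fell by 0.60 upon depletion in treated cells (adjusted p = 3.97e-04). The medians were 0.070, 0.10, −0.13 and −0.052. Among 6 transcription factors of BH3-only genes, Cisplatin raised 2 and lowered 1 in control cells and raised 1 and lowered 3 in depleted cells, while depletion lowered 1 in untreated cells and raised 1 and lowered 3 in treated cells, 3, 4, 1 and 4 of the 6 against those shares. DDIT3 (CHOP), a stress-induced factor that acts on BCL2L11, rose by 3.83 in control and 2.02 in depleted cells (SE 0.24 and 0.23). Upon depletion DDIT3 fell in treated cells by 2.21 on the log2 scale (SE 0.22, adjusted p = 2.52e-05), and its interaction was −1.81 (SE 0.31, adjusted p = 0.0125). FOXO3, another factor known to act on BCL2L11, fell upon depletion by 0.49 in untreated and 0.60 in treated cells on the log2 scale (adjusted p = 0.0141 and 0.00306) and did not pass with Cisplatin (adjusted p = 0.767 and 0.320). The part of DDIT3 or FOXO3 in the changes of BCL2L11 was not tested. The medians of these 6 genes were −0.14, −0.25, −0.30 and −0.54.

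The genes whose levels over the 12 libraries were most like those of a member are given as a description, among up to 9779 genes of at least 10 CPM on average. The 12 libraries share the conditions, so the drug alone aligns many genes. BBC3 was closest to FAM98C, FAS and BTG2 (Pearson r of log2 CPM 0.998, 0.997 and 0.997), BAX to SRA1, PLEKHM2 and FDXR (0.995, 0.994 and 0.994), BAK1 to ANKRA2, PHLDB3 and PELO (0.997, 0.996 and 0.996) and PMAIP1 to PER1, RABGGTA and COX19 (0.997, 0.995 and 0.994). For BCL2, which fell with the drug, these were INSIG1, TPM4 and MTMR10 (0.986, 0.984 and 0.983). BIK was nearest to RILP, NSUN5 and SLC4A11 (0.987, 0.986 and 0.983). BCL2L11 had the least close companions of these 7 genes, RNF103, ZBTB18 and TSPAN17 (0.949, 0.943 and 0.943).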

How the data were processed

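Libraries were stranded TruSeq mRNA. The authors filtered out rRNA, tRNA and mitochondrial reads before alignment to hg19 with STAR 2.5.2b. They deposited raw counts of read pairs per gene, raw inclusion and skipping read counts per event from rMATS, and HTSeq counts of exonic and genic reads. The rMATS tables also hold deposited p-value, FDR and inclusion-difference score columns of the authors' own comparisons, which were not used here. Intronic reads were genic minus exonic counts. Counts were tested with edgeR 4.0.16 in R 4.3.3, by TMM scaling, filterByExpr, a cell-means model over 12 libraries and the quasi-likelihood test. Intronic and exonic reads were tested likewise in 11488 genes with at least 1 of each in every library. Sequences and tables were made with Python 3.11.15, numpy 2.4.6 and pandas 2.3.3, figures with matplotlib 3.10.9. The members and lists were chosen with earlier results of these data known. All members are named, the largest changes of each list, and the events of smallest adjusted p in each comparison. Equally numbered control libraries without and with Cisplatin deviated together (r of 0.632, 0.731 and 0.480 over 9779 genes) and were also compared as pairs. Replicates 1 and 3 deviated together across numbers too (r of 0.585 and 0.533), and replicate 2 against them (−0.692 to −0.576). The correlations thus set replicate 2 apart and do not show that equal numbers mark pairs. On simulated data 180 of 200 changed genes were recovered for Cisplatin in control cells (15101 genes, 13 others called), 166 of 200 for the interaction, 67 of 200 skipped exons (59022 exons, 0 others) and 106 of 200 intronic ratios (11488 genes, 4 others). Alternatives were unstranded counts, other scalings and filters, HTSeq counts, DESeq2 1.42.0, replicate blocks, other limits on splicing and the omission of each library. Values of some list genes and a sequence are not reported here.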

Additional observations from a re-analysis of the deposited data

Results flagged for a closer look

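BCL2L11 responded differently to Cisplatin in the 2 kinds of cells. Its response was higher in depleted cells by 1.25 on the log2 scale (SE 0.17, edgeR interaction test, adjusted p = 0.00639), and it kept this sign and passed the threshold in every one of 21 alternative settings, between 1.07 and 1.32. All 3 untreated depleted libraries were lower than all 9 others, at 11.4 to 12.8 CPM against 23.3 to 31.6 CPM. The difference therefore lies in the untreated cells, since the treated libraries of both kinds overlapped.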

How the results depend on the processing

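Of the recomputed log2 fold changes of the members, 1079 kept their side of the threshold, 6 lost the call and 5 gained one. Of values past the threshold, 0 reversed direction. Values not past it could change sign, such as that of BCL2L1 with Cisplatin in control cells, from −0.16 to 0.088. DESeq2 in place of edgeR gave 2 members past the interaction test, and 2 past it at 2-fold, BIK joining BCL2L11. Requiring 10 reads of the rarer form gave 1 member splicing event past the threshold for Cisplatin in control cells, 2 upon depletion in untreated cells and 3 in treated cells, and a limit of 0.1 in inclusion level called 1 upon depletion in untreated cells. Leaving out 1 library at a time gave 3 to 4 events for Cisplatin in depleted cells and 1 to 2 upon depletion in treated cells. For intronic reads it gave 2 to 6 members for Cisplatin in control cells and 1 to 8 upon depletion in untreated cells, the lowest without replicate 2 of untreated depleted cells and the highest without replicate 2 or 3 of treated control cells. Separate scaling of intronic reads gave 1 member upon depletion in untreated cells, and omission of replicate 2 of both control groups gave 4 for Cisplatin in control cells.

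With a replicate block over the 12 libraries 7, 8, 5 and 4 members passed in the 4 comparisons and 1 in the interaction, as without it. A block within the comparison changed 1 call, BAK1 upon depletion in treated cells (log2 −0.25, adjusted p = 0.0965), leaving 3. The block on intronic reads left 2, 6, 5 and 8. Outside the control pair, equally numbered libraries correlated with r of −0.0647 to 0.406 for Cisplatin in depleted cells, 0.00857 to 0.135 for depletion in untreated and −0.20 to 0.0904 in treated cells, so they were not taken as pairs. No paired analysis was possible for splicing because its columns carry no replicate number. BIK had 16 to 24 counts in untreated control libraries and the BCL2L11 segment 297 to 482 reads per comparison, and part of their spread may be counting error.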
